A study of Mus musculus with 130 samples.

Results

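The 9 genes described here are imprinted genes of growth and the noncoding RNAs of their clusters, namely Dlk1, Meg3, Rian, Peg3, Plagl1, Grb10, Mest, Ndn and Kcnq1ot1. They were taken by symbol from a raw count table of 52550 genes, and all 9 were found. The table came from mouse embryos of strain FVB/NJ, wild type apart from the reporter FUCCI, a pair of fluorescent reporters whose colours follow the cell cycle. Whole embryos were minced and sorted by flow into 4 gates, labelled as G0, G1, G1-S and S-G2-M cells, beside unsorted cells, and ribosomal RNA was depleted before library construction. Embryos were E10.5 (preparations WT1 and WT2), E11.5 (WT3) and E13.5 (preparations 5 and 8), which gave 5 fractions in each of 5 preparations and thus 25 libraries. All groups were of the same strain and genotype, and the labels do not say how many embryos were pooled in a preparation or what a preparation name stands for. P-values therefore measure the spread between libraries, which may be technical. For unsorted cells by day, with 1 library per preparation, this is the spread between preparations. The other fits took the libraries as independent, with no term for preparation unless a block is named. For days within gates there were 2 preparations at E10.5 and 2 at E13.5. Fractions of a preparation deviated together, so p-values for days within gates can be too small.

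An imprinted gene is transcribed mainly from the copy inherited from the mother or from the father, under the control of DNA methylation laid down in the germ line. Imprinted genes lie in clusters, many of which hold a long noncoding RNA, and as a group they are known for effects on growth of the embryo and placenta. In the Dlk1-Dio3 cluster the paternal copy gives Dlk1, a transmembrane ligand related to Notch ligands, while the maternal copy gives the noncoding RNAs Meg3, Rian and Mirg, of which Rian hosts small nucleolar RNAs. Peg3 and Plagl1 encode zinc finger proteins, Mest a protein of the hydrolase fold, and Ndn encodes necdin, a protein known from neurons, and these 4 are expressed from the paternal copy. Grb10 encodes an adaptor protein that restrains growth and insulin receptor signalling and is maternally expressed outside neurons. Kcnq1ot1 is a paternally expressed RNA that starts inside an intron of Kcnq1 on the other strand and is known to silence its neighbours on that copy. The counts do not separate the parental copies, so every value below is the sum of both.

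Library totals were 14.7 M to 58.5 M counts, with a median of 22.9 M, so counting error was small for these genes. The genes Gm26917 and Gm42418 together took 1.49% to 6.37% of counts in preparations 5 and 8 and 1.58% to 9.47% in the WT-titled ones. The WT-titled preparations and preparations 5 and 8 differed in more than day. Mitochondrially encoded genes took 1.66% to 3.42% of counts in libraries of preparations 5 and 8 and 0.372% to 0.701% in the WT-titled ones. Genes with exons under exons of the other strand also differed, by the extent of overlap. The median log2 change of E13.5 against E10.5 in unsorted cells was -0.06 over 12086 genes with no such overlap. It was 0.09 over 4162 genes with over 0% to 25% of their exon length overlapped, and 0.51 over 619 genes with over 25% to 75% overlapped. Day and type of preparation cannot be told apart, because no type of preparation holds both E10.5 and E13.5. Markers of S to M phase followed the gate labels, with a summed level over 10 genes of 63.1 to 163 CPM (counts scaled to a common library total) in G0, 204 to 437 CPM in G1, 2001 to 3330 CPM in G1-S and 4945 to 6498 CPM in S-G2-M. Markers of neurons, mesenchyme, blood, liver, heart and epithelium were all detected in the whole-embryo material, while 10 trophoblast markers summed to at most 9.01 CPM. In sorted bulk samples, fewer cells of a type and less RNA per cell cannot be told apart.

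The members lie on 5 chromosomes in GENCODE M21 on GRCm38 coordinates (mm10). Dlk1 (chr12:109452823-109463336), Meg3 (chr12:109541001-109571726) and Rian (chr12:109603940-109661716) follow each other on the plus strand. Peg3 (chr7:6703892-6730431, minus strand), Ndn (chr7:62346569-62350262, plus strand) and Kcnq1ot1 (chr7:143203458-143296549, minus strand) lie in separate clusters of chromosome 7. Plagl1 (chr10:13060504-13131694, plus strand), Grb10 (chr11:11930508-12038683, minus strand) and Mest (chr6:30723547-30748465, plus strand) are each alone among the members on their chromosome. Exons of the other strand covered 23.12% of the exon length of Mest, in Copg2, 6.79% of Meg3, 1.2% of Kcnq1ot1 and 0.49% of Plagl1, and none of Dlk1, Rian, Peg3, Grb10 and Ndn. 

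Promoter windows are shown for the 4 genes that were higher in G1 than in G0 with the largest changes and for 2 that were lower, since CpG dinucleotides are the sites of the methylation by which imprints are kept. Each window runs from 250 bases before to 50 bases after a RefSeq start in GRCm38.p6, 5' to 3' on the gene's own strand, and capitals mark CpG. Where RefSeq gives several starts for a gene (Mest, Grb10 and Meg3), the window with the most CpG is shown.
Mest (chr6:30737800-30738099, plus strand): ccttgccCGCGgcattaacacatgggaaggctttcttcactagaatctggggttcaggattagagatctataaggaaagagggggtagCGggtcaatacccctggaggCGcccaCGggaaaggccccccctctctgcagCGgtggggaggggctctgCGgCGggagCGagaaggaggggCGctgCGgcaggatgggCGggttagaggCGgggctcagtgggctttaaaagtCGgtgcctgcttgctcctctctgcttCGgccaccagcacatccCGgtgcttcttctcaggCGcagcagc
Peg3 (chr7:6730370-6730669, minus strand): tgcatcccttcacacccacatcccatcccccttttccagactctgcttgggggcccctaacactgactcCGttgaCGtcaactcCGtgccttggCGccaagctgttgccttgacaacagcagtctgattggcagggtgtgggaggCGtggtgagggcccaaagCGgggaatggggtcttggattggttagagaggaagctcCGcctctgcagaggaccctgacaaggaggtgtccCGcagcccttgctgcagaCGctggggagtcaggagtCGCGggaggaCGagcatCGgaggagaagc
Plagl1 (chr10:13090582-13090881, plus strand): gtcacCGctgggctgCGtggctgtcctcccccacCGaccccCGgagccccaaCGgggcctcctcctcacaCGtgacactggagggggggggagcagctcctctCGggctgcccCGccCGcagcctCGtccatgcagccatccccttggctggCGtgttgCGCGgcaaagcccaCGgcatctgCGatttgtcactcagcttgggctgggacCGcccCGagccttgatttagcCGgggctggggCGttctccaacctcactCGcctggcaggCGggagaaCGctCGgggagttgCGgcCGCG
Grb10 (chr11:12037371-12037670, minus strand): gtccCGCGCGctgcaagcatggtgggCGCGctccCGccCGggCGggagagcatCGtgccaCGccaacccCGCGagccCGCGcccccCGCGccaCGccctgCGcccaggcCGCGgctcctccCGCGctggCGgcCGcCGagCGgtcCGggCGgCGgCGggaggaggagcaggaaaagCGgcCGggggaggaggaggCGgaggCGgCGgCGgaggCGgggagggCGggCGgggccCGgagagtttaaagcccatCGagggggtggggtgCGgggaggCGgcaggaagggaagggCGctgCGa
Ndn (chr7:62348027-62348326, plus strand): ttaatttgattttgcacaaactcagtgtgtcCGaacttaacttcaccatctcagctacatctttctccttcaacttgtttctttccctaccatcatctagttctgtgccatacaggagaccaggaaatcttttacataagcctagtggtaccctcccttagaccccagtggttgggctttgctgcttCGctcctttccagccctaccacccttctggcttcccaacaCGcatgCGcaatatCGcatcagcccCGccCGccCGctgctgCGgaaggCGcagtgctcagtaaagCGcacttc
Meg3 (chr12:109540746-109541045, plus strand): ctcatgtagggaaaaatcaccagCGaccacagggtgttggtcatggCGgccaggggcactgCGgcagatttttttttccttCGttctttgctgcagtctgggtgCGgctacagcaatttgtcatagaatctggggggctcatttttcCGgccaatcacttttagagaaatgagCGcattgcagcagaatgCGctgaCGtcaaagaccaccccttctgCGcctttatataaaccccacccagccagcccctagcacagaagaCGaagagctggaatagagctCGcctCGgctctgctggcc
The windows differed widely in CpG content. Among 32851 RefSeq windows of 300 bases the median was 7 CpG, with quartiles of 3 and 20. The Grb10 window held 45, more than 98.1% of all windows, and the Plagl1 window held 26. The windows of Mest, Peg3, Meg3 and Ndn held 17, 13, 13 and 11 CpG, and the window of Rian held 0. At other RefSeq starts Mest had 8 or 17 CpG, Grb10 had 9 and Meg3 had 1, so the content depends on the start taken. The letters GGGGCCCC, searched on both strands, were in 1 of 13 member windows, that of Peg3, and in 1.08% of all windows. The letters TTTNGCGC were in 0 of 13 and in 1.38% of all windows, and TTTNCCGC in 1 of 13, that of Plagl1, and in 2.22%, again on both strands. These matches describe the letters of the windows and say nothing of what binds there.

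Levels are compared between genes as CPM per kilobase of exon, after scaling by TMM factors. Mest was highest in mean level in every fraction, at 101 ± 67.2 CPM per kb in G0 and 259 ± 33.9 CPM per kb in S-G2-M (SD, n = 5). Grb10 and Peg3 came next in every fraction, with means of 85.5 to 169 and 73 to 147 CPM per kb. In G0 these 3 genes did not separate, since Mest lay above Grb10 in 2 of 5 preparations and Grb10 above Peg3 in 3 of 5. In G1-S and S-G2-M the order Mest, Grb10, Peg3 held in 5 of 5 preparations. Kcnq1ot1, spread over 93.1 kb, was lowest per length in every fraction, at 4.35 ± 3.35 to 12.4 ± 3.64 CPM per kb. In the middle the order changed with the gate. Ndn was the fourth highest in G0, at 66.9 ± 6.82 CPM per kb and above Rian in 5 of 5 preparations, but was seventh in G1, at 24.9 ± 3.86 CPM per kb. Plagl1, Rian, Dlk1 and Ndn kept no single order in G1, G1-S and S-G2-M, since each lay above the next in only 2 or 3 of 5 preparations. For Plagl1 and Rian the order followed the type of preparation. In G1 of preparations 5 and 8, Plagl1 had 87.9 and 72.2 CPM per kb and Rian 47.9 and 45.5. In WT1, WT2 and WT3, Plagl1 had 16.6, 18.8 and 21.4 CPM per kb and Rian 28, 31.6 and 39.2.

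**Figure D1:**
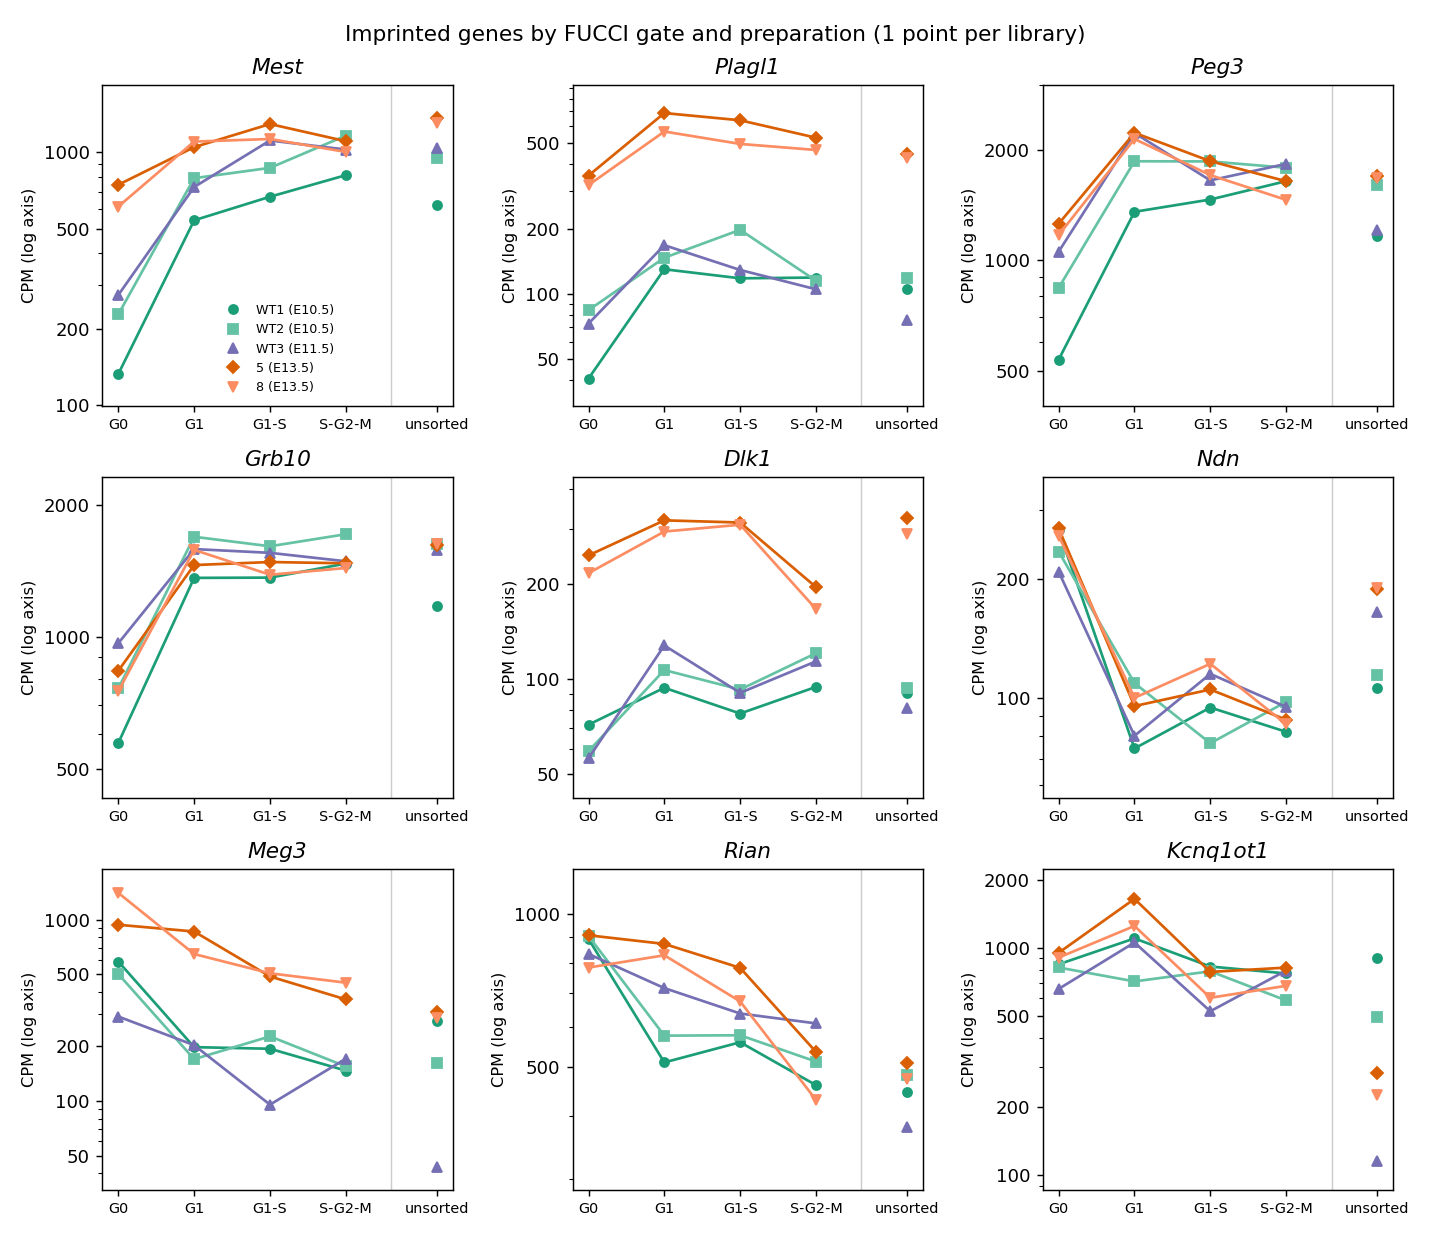
Levels of the 9 genes (CPM, log axis, a separate range in each panel) by gate and in unsorted cells, with 1 point per library, lines joining the gates of a preparation and colours for the day. Mest, Plagl1, Peg3 and Grb10 are lowest in G0 in all 5 preparations, Ndn is highest there in all 5, and the E13.5 preparations stand above the others for Dlk1 and Plagl1.

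Cells in G1 differed from cells in G0 for most of the members. The quasi-likelihood test of edgeR called 8 of 9 at an adjusted p under 0.05, 5 higher in G1 and 3 lower, against a background of 36.3% of 23506 genes called in either direction. The median log2 change of the 9 members was 0.64, beside 0.01 over all genes tested. The 5 that rose were Mest, Plagl1, Peg3, Grb10 and Dlk1, and the 3 that fell were Ndn, Meg3 and Rian. Of 18333 genes with a mean of at least 1 CPM, 48.9% kept 1 direction in all 5 preparations in this comparison. Values below are CPM in the order WT1, WT2, WT3, 5 and 8.

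Mest had 539, 791, 730, 1049.5 and 1104 CPM in G1 cells, against 133, 229, 273, 745 and 611 CPM in G0 cells. Each preparation was higher in G1, and the groups overlapped, since the G0 cells of preparations 5 and 8 reached the G1 level of the WT-titled ones. The log2 change was 1.22 ± 0.23 (SE), or 2.33-fold, with an adjusted p of 0.000237 by edgeR, and it was 1.74 in the WT-titled set and 0.65 in the set of 5 and 8. Peg3 had 1356, 1861, 2222, 2224 and 2140.3 CPM in G1 cells, against 537, 842, 1056, 1258 and 1172 CPM in G0 cells. These groups did not overlap, and the log2 change was 1.02 ± 0.16 (adjusted p = 1.58e-05, edgeR). Grb10 had 1362, 1690.3, 1584.5, 1457 and 1578 CPM in G1 cells, against 572, 762, 966, 836 and 751 CPM in G0 cells. These groups did not overlap either, and Grb10 changed by 0.99 ± 0.11 (adjusted p = 2.89e-07, edgeR), the smallest error among the 9 members. Among the WT-titled preparations and among 5 and 8 the log2 changes were 1.18 and 0.83 for Peg3 and 1.03 and 0.92 for Grb10.

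Plagl1, a zinc finger transcription factor, had 130, 147, 168, 688 and 565 CPM in G1 cells, against 40.5, 84, 72.8, 353 and 319 CPM in G0 cells. It was higher in G1 in 5 of 5 preparations, and the groups overlapped, with both gates of preparations 5 and 8 above all WT-titled values. The log2 change was 1.06 ± 0.17 (adjusted p = 2.33e-05, edgeR), and 1.19 and 0.88 among the WT-titled preparations and among 5 and 8. Dlk1 had 94, 107, 128, 319 and 294 CPM in G1 cells, against 71.8, 59.2, 56.2, 247 and 217 CPM in G0 cells. The change was the smallest of the 5 increases, 0.64 ± 0.17 on the log2 scale (adjusted p = 0.00405, edgeR), with 0.82 in the WT-titled set and 0.39 in the set of 5 and 8.

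Ndn moved the other way in every preparation. It had 74.4, 109, 80.1, 95.3 and 100 CPM in G1 cells, against 266, 235, 209, 269 and 258 CPM in G0 cells, with no overlap. The log2 change was -1.43 ± 0.14 (adjusted p = 3.75e-08, edgeR), and -1.42 and -1.44 among the WT-titled preparations and among 5 and 8. Neuronal markers moved with it: all 14 were lower in G1, with a median log2 change of -2.88, and their summed level was 869 to 2222 CPM in G1 and 5971 to 10229 CPM in G0, none of them at 0. Of 12 cardiac markers 6 were lower in G1 and 1 higher (median -1.41), and of 12 skeletal muscle markers 5 were lower and 1 higher (median -0.50). The part of these cell types in the fall of Ndn was not tested. Pearson r was also taken with the mean log2 CPM of the neuronal markers, centred by day, across the 25 libraries. Ndn had 0.86, Meg3 0.61 and Rian 0.52, while Mest and Grb10 had -0.83 and -0.81. For Meg3 and Rian other lists gave larger absolute values. With neural progenitor markers Ndn, Meg3 and Rian had -0.742, -0.674 and -0.767, and with markers of S to M phase -0.51, -0.776 and -0.805. The same libraries, depth and gates stand behind all of these values.

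Meg3, the maternally expressed noncoding RNA, had 198, 170, 203, 860 and 646 CPM in G1 cells, against 587, 501, 292, 937 and 1404.5 CPM in G0 cells. It was lower in G1 in 5 of 5 preparations, by as little as 0.12 on the log2 scale in preparation 5 and as much as 1.57 in WT1. The log2 change was -0.93 ± 0.27 (adjusted p = 0.00886, edgeR), and -1.15 and -0.65 among the WT-titled preparations and among 5 and 8. The call rested on the full set, with an adjusted p of 0.0733 without WT2 and 0.057 without preparation 8. Rian had 510, 576, 715, 874 and 830 CPM in G1 cells, against 894, 906, 835, 909 and 785 CPM in G0 cells. Its log2 change of -0.33 ± 0.12 (adjusted p = 0.0384, edgeR) was unevenly spread: in the WT-titled preparations it was -0.55 (adjusted p = 0.0117), while within preparations 5 and 8 it was -0.004 (adjusted p = 0.982). The call was lost without WT1 (adjusted p = 0.249), WT2 (0.22) or WT3 (0.0629), without the filter on low counts (0.053) and without Gm26917 and Gm42418 (0.0528).

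Mesenchymal markers stood beside the genes that rose. Of 12 such markers 11 were higher in G1, with a median log2 change of 1.18, and their summed level was 2560 to 9225 CPM in G1 and 659 to 7098 CPM in G0. The mean log2 CPM of these markers had a day-centred r of 0.91 with Mest and 0.91 with Peg3 over 25 libraries. It had 0.87 with Grb10, 0.82 with Plagl1 and 0.61 with Dlk1. Markers of neural progenitors were also higher in G1 for 9 of 12 genes, and 9 of 11 cartilage markers and 9 of 10 epithelial markers were as well. Blood markers also rose, with 8 of 10 macrophage markers higher (median 1.81, summed level 43.9 to 75.7 CPM in G1 and 15.2 to 25.2 CPM in G0) and 7 of 10 erythroid markers (median 1.92, 445 to 3133 CPM in G1 and 110 to 429 CPM in G0). The part of these cell types in the changes of the members was not tested.

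**Figure D2:**
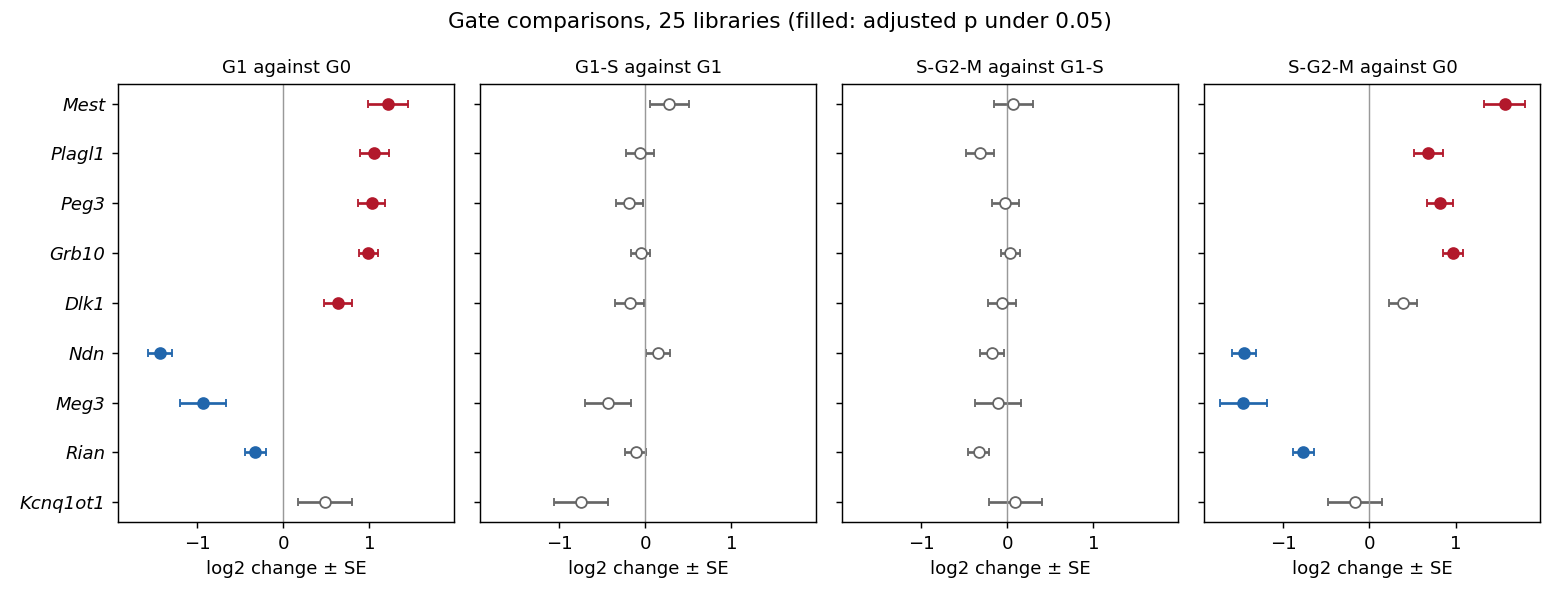
Log2 change ± SE of each gene in the 4 gate comparisons from 1 model of 25 libraries, filled where the adjusted p is under 0.05, red where higher and blue where lower. The changes sit in G1 against G0 and S-G2-M against G0, and the 2 steps between them hold 0 filled points.

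The later steps of the cycle brought no call among the members. For G1-S against G1, edgeR called 0 of 9 members and 18.9% of all genes, and for S-G2-M against G1-S 0 of 9 and 17.4%. In each of the 2 steps 1 member had an unadjusted p under 0.05, Kcnq1ot1 and Rian in that order, and DESeq2 called that 1 member in each. Rian had 460, 512, 609, 535 and 430 CPM in S-G2-M cells, against 559, 577, 637, 784 and 673 CPM in G1-S cells. It was lower in S-G2-M in 5 of 5 preparations, though the groups overlapped, with a log2 change of -0.33 ± 0.12 and an adjusted p of 0.059 by edgeR. In this step 36.4% of 18333 genes kept 1 direction in all 5 preparations. Within preparations 5 and 8 alone 3 members passed in each step: Meg3 (-0.65), Peg3 (-0.34) and Kcnq1ot1 (-1.11) in G1-S against G1, and Dlk1 (-0.77), Rian (-0.59) and Ndn (-0.38) in S-G2-M against G1-S. In that fit 8476 of 20886 genes were called in G1-S against G1, and at most 4914 of 20886 in S-G2-M against G1-S.

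In S-G2-M against G0, edgeR called 7 of 9 members, 4 higher and 3 lower, against 54.2% of all genes in either direction. The shares of all genes called in this comparison and in G1 against G0 differ, so the counts of members are not set against each other. Mest had 813, 1165.5, 1027, 1108 and 1005 CPM in S-G2-M cells, against the G0 values above, with no overlap and a log2 change of 1.57 ± 0.24 (adjusted p = 5.66e-06, edgeR). It was 2.29 in the WT-titled set and 0.59 in the set of 5 and 8. Grb10, Peg3 and Plagl1 rose by 0.97 ± 0.11, 0.82 ± 0.16 and 0.68 ± 0.17 on the log2 scale, each in 5 of 5 preparations. In this comparison 64.2% of 18333 genes kept 1 direction in all 5 preparations. For Peg3 the change was 1.15 in the WT-titled set and 0.30 in the set of 5 and 8, for Grb10 it was 1.05 and 0.82, and for Plagl1 0.79 and 0.51.

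All 3 genes that were lower in G1 were lower in S-G2-M too. Meg3 had 147, 155, 171, 363 and 449 CPM in S-G2-M cells, 2.76-fold below G0 (log2 change -1.46 ± 0.27, adjusted p = 7.77e-05, edgeR). Ndn had 82, 97.7, 94.8, 88 and 85.7 CPM in S-G2-M cells, and its log2 change of -1.46 ± 0.14 was close to that in G1. Rian changed by -0.77 ± 0.12 with no overlap between the gates (adjusted p = 9.15e-06, edgeR). Among the WT-titled preparations and among 5 and 8 the log2 changes were -1.41 and -1.58 for Meg3, -1.36 and -1.65 for Ndn and -0.72 and -0.86 for Rian. Neuronal markers were lower for 14 of 14 in this comparison, with a median log2 change of -4.45 and a summed level of 240 to 602 CPM in S-G2-M and 5971 to 10229 CPM in G0. Of 12 cardiac markers 8 were lower and 1 higher (median -2.39), and of 12 skeletal muscle markers 6 were lower and 2 higher (median -1.60). The part of these cell types was not tested.

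Dlk1 took opposite directions in the 2 types of preparation. It had 94.6, 121, 114, 196 and 167 CPM in S-G2-M cells, above G0 in WT1, WT2 and WT3 and below G0 in 5 and 8. The log2 change was 0.83 within the WT-titled preparations (adjusted p = 0.000269) and -0.40 within preparations 5 and 8 (adjusted p = 0.00144), both by edgeR. Over all libraries it was 0.39 ± 0.17 with an adjusted p of 0.0516, which describes neither set. 

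Kcnq1ot1 showed no called change between gates over all preparations. It had 1103, 713, 1058, 1645.5 and 1250.5 CPM in G1 cells, against 848, 821, 661, 953 and 908 CPM in G0 cells. G1 was the highest gate in 4 of 5 preparations, and WT2 was the exception. The log2 change of G1 against G0 was 0.49 ± 0.31 (adjusted p = 0.241, edgeR), with 0.36 in the WT-titled set and 0.62 in the set of 5 and 8 (adjusted p = 0.014). In G1-S cells it had 829, 790, 527, 785 and 604 CPM, a log2 change of -0.75 ± 0.31 against G1 with an adjusted p of 0.1. The level in unsorted cells, 904, 496, 115, 283 and 225 CPM, was below all 4 gates of the same preparation in 4 of 5 preparations. Meg3 in unsorted cells, at 275, 161, 43.1, 308 and 288 CPM, was below all gates in 3 of 5, and Rian in 4 of 5. Malat1, an abundant nuclear noncoding RNA added after values were seen, had 5945, 4098, 1961, 5665 and 5342 CPM in unsorted cells, so that WT3 was the lowest preparation for it as for Meg3 and Kcnq1ot1. Erythroid markers summed to 16571 to 35939 CPM in unsorted cells and to 82.5 to 3133 CPM in sorted cells. The part of blood cells or of RNA quality in the low unsorted levels was not tested.

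Between days, E13.5 against E10.5, the genes with at most 0.49% of their exon length under the other strand are taken first. In unsorted cells edgeR called 4 of 9 members, Plagl1, Dlk1 and Ndn higher and Kcnq1ot1 lower, against 43.7% of 16911 genes. Without the 3 genes set apart below, the count was 3 of 6. Dlk1 had 324 and 288 CPM in preparations 5 and 8 at E13.5, against 90.4 and 94.1 CPM in WT1 and WT2 at E10.5. WT3 at E11.5 had 81.2 CPM, which lies beside the E10.5 values, and WT3 is also a WT-titled preparation. The log2 change was 1.63 ± 0.11, or 3.10-fold (adjusted p = 0.00165, edgeR). Plagl1 had 446 and 424 CPM at E13.5, against 105 and 119 CPM at E10.5, with 75.6 CPM at E11.5. Its log2 change was 1.86 ± 0.11 (adjusted p = 0.00119, edgeR).

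The gates gave the same direction for these 2 genes. Dlk1 was called higher at E13.5 in G0, G1, G1-S and S-G2-M, with log2 changes of 1.82 ± 0.14, 1.61 ± 0.14, 1.87 ± 0.14 and 0.76 ± 0.14. Plagl1 was called in all 4 gates as well, with changes of 2.43 ± 0.28, 2.18 ± 0.28, 1.84 ± 0.28 and 2.09 ± 0.28. Over these 4 gates, 5, 6, 5 and 3 of 9 members were called higher and 0 lower, beside 20.4%, 18.7%, 19.8% and 18.9% of all genes called higher and 42.9%, 47.1%, 39.7% and 43% called in either direction. Without the genes set apart the counts were 3, 3, 4 and 2 of 6. The median log2 change of all genes was -0.04, -0.11, -0.02 and -0.07 in the same gates. Mesenchymal markers moved with these changes, with 10 of 12 higher at E13.5 in unsorted cells and 12, 9, 6 and 6 of 12 in G0, G1, G1-S and S-G2-M, and 0 lower. Cartilage markers were higher for 9 of 10 tested in unsorted cells and for 9, 10, 10 and 10 of 11 in the gates, hepatocyte markers for 10 of 10 and 3, 3, 12 and 5 of 12, and macrophage markers for 9 of 10 and 3, 4, 10 and 3 of 10. In unsorted cells the summed level ranged over the preparations from 1950.5 to 7799 CPM for mesenchyme, 750.0 to 3936 CPM for cartilage, 92 to 1668 CPM for hepatocytes and 76.8 to 265 CPM for macrophages. The part of these cell types in the changes by day was not tested.

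Grb10 had no called change over all preparations, with log2 changes between -0.13 ± 0.17 in S-G2-M and 0.25 ± 0.17 in G0. Its level in G1-S cells was 1480.2 and 1385 CPM at E13.5, against 1364 and 1608 CPM at E10.5. The Grb10 values moved with a preparation left out, to 0.44 in G0 and 0.32 in unsorted cells without WT2, and to -0.24 in S-G2-M without WT1. Each of these fits holds 1 library of the fraction at E10.5, so no call is read from it. Peg3 was called in G0 alone among the fractions, with 1258 and 1172 CPM at E13.5 against 537 and 842 CPM at E10.5 (log2 change 0.82 ± 0.20, adjusted p = 0.00318, edgeR), a call lost without preparation 5 (adjusted p = 0.109) or 8 (0.0703). Ndn was called in unsorted cells, with 189 and 190 CPM at E13.5 against 106 and 114 CPM at E10.5 (0.69 ± 0.10, adjusted p = 0.00636, edgeR). In counts summed over the 4 sorted gates its change was 0.19 with an adjusted p of 0.169, and among the gates it was called in G1-S (0.41 ± 0.15). Neuronal markers in unsorted cells were higher at E13.5 for 5 of 14 and lower for 1, and their part was not tested. Rian was called in G1 (0.65 ± 0.13) and G1-S (0.36 ± 0.13) and not in unsorted cells (-0.02 ± 0.12). The G1-S calls were lost without preparation 5 (adjusted p = 0.416 for Rian and 0.149 for Ndn) or 8 (0.139 for Rian and 0.464 for Ndn), and that of Rian also without WT3 (0.0516), with RLE scaling (0.05) and without the filter on low counts (0.0804). Without Gm26917 and Gm42418 both were lost (0.0595 for Rian and 0.0556 for Ndn).

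Mest, Meg3 and Kcnq1ot1 are set apart, because over 1% of their exon length lies under exons of the other strand and overlapped genes differed between the 2 types of preparation. These members lie in the range of over 0% to 25% overlap, where the median log2 change in unsorted cells was only 0.09 (quartiles -0.33 and 0.56). Plagl1, with 0.49% under Gm27741, is below the limit of 1% and was kept with the others. Gnas, an imprinted gene with 21.96% of its exon length overlapped and named here after its values were seen, had 866 to 1233 CPM in preparations 5 and 8 and 21.3 to 42.6 CPM in the WT-titled ones. Rtl1, with 8.12% overlapped, had 3.84 to 8.82 CPM in preparations 5 and 8 and 21.4 to 56.8 CPM in the WT-titled ones. How strand was treated in counting is not given in the sources used here, and its part in the day values of the 3 members was not tested. Meg3 was higher at E13.5 in all 4 gates, with log2 changes of 1.11 to 2.03, and not called in unsorted cells (0.34 ± 0.28, adjusted p = 0.352, edgeR). The sums of the sorted gates gave 1.47 for Meg3 (adjusted p = 0.0005, edgeR). Its unsorted value was 0.42 without the filter on low counts (adjusted p = 0.0361, edgeR). It was 0.82 without WT1 and -0.03 without WT2, in fits that hold 1 library at E10.5. The G0 call of Meg3 was lost without preparation 8 (0.80, adjusted p = 0.0514). Mest was higher in G0 (1.91 ± 0.27) and in G1 (0.69 ± 0.26), the second lost without preparation 5 (adjusted p = 0.192) or 8 (0.215). Its partner Copg2 had 71.3 and 70.1 CPM in unsorted cells at E13.5, against 84.4 and 100 CPM at E10.5, while Mest had 1370.0 and 1308 CPM at E13.5 against 618 and 950.0 CPM at E10.5 (0.68 ± 0.21, adjusted p = 0.0501, edgeR). That Mest value passed with RLE scaling (0.0424), DESeq2 (0.00226) and without the filter (0.000226), and was 0.43 without WT1 and 0.97 without WT2. Kcnq1ot1 was lower at E13.5 in unsorted cells, at 283 and 225 CPM against 904 and 496 CPM at E10.5 (-1.57 ± 0.33, adjusted p = 0.0167, edgeR), but the sums of the sorted gates gave 0.29 (adjusted p = 0.172). Without WT1 the unsorted change was -1.03 with an adjusted p of 0.0974. In G1 cells Kcnq1ot1 was called higher (0.67 ± 0.26, adjusted p = 0.0406, edgeR), a call lost without WT2 (0.37, adjusted p = 0.23), 5 (0.46, adjusted p = 0.371) or 8 (adjusted p = 0.0683) and with RLE scaling (0.0511).

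**Figure D3:**
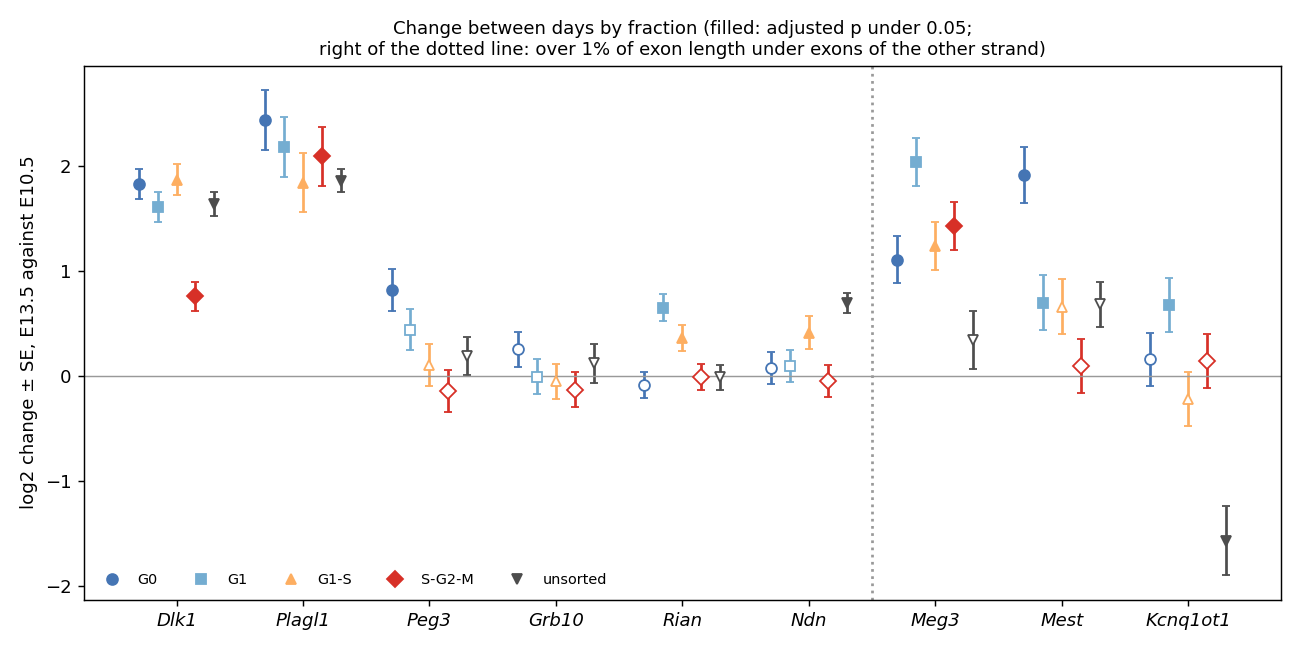
Log2 change ± SE of E13.5 against E10.5 for each gene in the 4 gates and in unsorted cells, filled where the adjusted p is under 0.05, with the 3 genes that have over 1% of their exon length under exons of the other strand to the right of the dotted line. Dlk1 and Plagl1 are filled in all 5 fractions, Grb10 in none, and Kcnq1ot1 in unsorted cells lies far from its 4 gates.

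Whether the gate changes themselves differed between days was tested as an interaction, E13.5 minus E10.5. For S-G2-M against G1-S the test called 1 of 9 members, Dlk1, beside 1.02% of all genes. Dlk1 had log2 differences of -0.68 and -0.89 in preparations 5 and 8, and of 0.28 and 0.38 in WT1 and WT2, a difference of -1.11 ± 0.20 (adjusted p = 0.008, edgeR). Hepatocyte markers moved with this difference: 10 of 12 were lower in the same test, with a median of -5.70, and their summed level was 26.5 to 43.1 CPM in S-G2-M and 33.2 to 2574.5 CPM in G1-S over the 5 preparations, with up to 1 marker at 0. By day in G1-S cells 12 of 12 were higher at E13.5, with a median log2 change of 5.54. In the day difference of G1-S against G1, 11 of 12 were higher (median 6.08), while Dlk1 had 0.26 ± 0.20 and was not called. In G1 cells these markers summed to 14.2 to 36 CPM. Dlk1 had 319 and 294 CPM in G1 cells of preparations 5 and 8, beside 314 and 309 CPM in G1-S. The part of hepatocytes in the Dlk1 result was not tested. For G1 against G0 the interaction test called 1 of 9, Rian, beside 3.51% of all genes. Rian changed by -0.06 and 0.08 in preparations 5 and 8 and by -0.81 and -0.66 in WT1 and WT2, a difference of 0.74 ± 0.18 (adjusted p = 0.0286, edgeR). Each call was lost without a preparation of E13.5, with adjusted p of 0.554 without 5 and 0.834 without 8 for Dlk1, and 0.467 and 0.661 for Rian, while the differences in these fits were -1.193 and -1.002 for Dlk1 and 0.823 and 0.695 for Rian. With the preparation as a block, Mest joined for G1 against G0 (-1.23, adjusted p = 5.96e-05), where the fit without the block gave -1.21 ± 0.37 and an adjusted p of 0.0899. For G1-S against G1 edgeR called 0 of 9 members, beside 5.31% of all genes, with 2 at an unadjusted p under 0.05 and 0 by DESeq2, and the block gave 1, Kcnq1ot1 (-0.93, adjusted p = 0.0097).

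Within the Dlk1-Dio3 cluster, Rian and Mirg kept a narrow ratio of CPM while Meg3 and Rian did not. The ratio of Rian to Mirg lay between 7.01 and 12.3 in the 25 libraries, a 1.75-fold range. It ranged 1.67-fold within the WT-titled preparations and 1.43-fold within preparations 5 and 8. The ratio of Meg3 to Rian lay between 0.113 and 1.79, a 15.8-fold range across both types of preparation. It was 0.606 to 1.79 in preparations 5 and 8 (2.95-fold) and 0.113 to 0.656 in the WT-titled ones (5.81-fold). The lowest was the unsorted library of WT3 and the highest the G0 library of preparation 8. Meg3 is among the genes set apart for overlap, and the same limit holds for its ratios between types of preparation. Meg3 to Dlk1 ranged over 16.0-fold. Centred by day over 25 libraries, Meg3 and Rian had a Pearson r of 0.84 with each other, and Dlk1 had -0.30 with Meg3 and -0.11 with Rian.

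**Figure D4:**
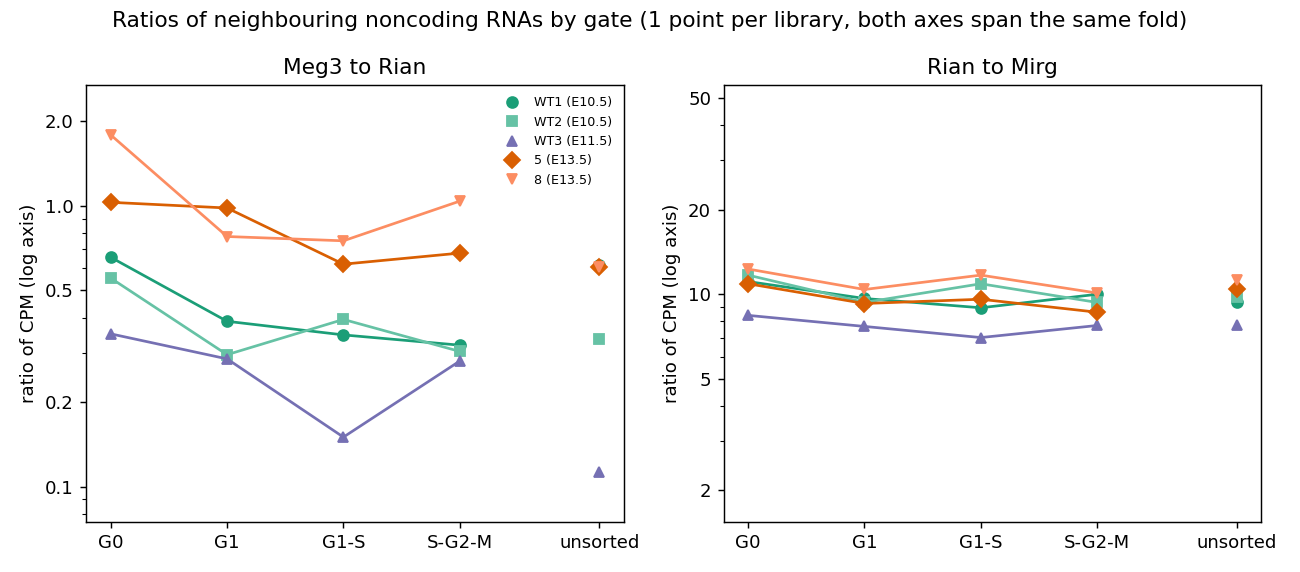
Ratio of CPM of Meg3 to Rian and of Rian to Mirg (log axes of equal span) by gate and in unsorted cells, with 1 point per library. Rian to Mirg stays between 7.01 and 12.3, while Meg3 to Rian runs from 0.113 in unsorted WT3 cells to 1.79 in G0 cells of preparation 8.

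The members also fell into sets by their course over the libraries. Day-centred r was 0.92 for Peg3 with Plagl1 and for Grb10 with Mest, 0.88 for Peg3 with Grb10 and -0.83 for Plagl1 with Ndn. Among 10467 genes of mean log2 CPM of at least 3, the gene most alike was Oaf for Mest (r = 0.98), Phactr2 for Peg3 (0.98), Inppl1 for Grb10 (0.97), Itpkb for Plagl1 (0.96), Gfod2 for Ndn (0.97), Asxl3 for Meg3 (0.95), Mirg for Rian (0.94), BC005561 for Kcnq1ot1 (0.96) and Hgf for Dlk1 (0.81). The next most alike were Gja1, Snai2, Nek9, Phactr2, Tubb2a, Snx29, Epb41l4b, Pcdhga9 and Col14a1 in the same order of members. All of these r values share the same 25 libraries and gates and are descriptions only. Dlk1 had the lowest maximum of the 9.

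Other imprinted genes, 22 known as paternally and 22 as maternally expressed, moved in both directions. In G1 against G0, 10 of the 41 tested were higher and 8 lower, with a median log2 change of 0.04, beside 36.3% of all genes called. In S-G2-M against G0, 9 were higher and 18 lower, with a median of -0.26, beside 54.2% of all genes. Nap1l5 and Dio3 fell below the level required for naming, and are given because their called changes were larger than those of genes named here: Nap1l5 had -2.48 ± 0.23 in G1 against G0 and -2.71 ± 0.23 in S-G2-M against G0, and Dio3 had -1.10 ± 0.32 in S-G2-M against G1-S. These are not all of the large differences. Tfpi2, named after its values were seen, differed by 0.787 to 2.989 on the log2 scale over the 5 preparations in G1-S against G1. In S-G2-M against G1-S it differed by -3.844 to -1.58. The gates did not overlap in either step. Igf2, the growth factor of the neighbouring cluster on chromosome 7, and H19, the noncoding RNA beside it, were higher in G1 by 1.02 ± 0.19 and 1.03 ± 0.24. Peg13 and Snrpn were lower in G1, with log2 changes of -1.78 ± 0.19 and -1.48 ± 0.17, and Asb4 was higher by 1.44 ± 0.21. In G1-S against G1, Tssc4 was higher (0.63 ± 0.15) and Zim1 (-0.54 ± 0.18) and Mkrn3 (-0.47 ± 0.16) were lower. In S-G2-M against G1-S, where no member was called, Cdkn1c, a CDK inhibitor, fell by 0.86 ± 0.24 (adjusted p = 0.0153, edgeR), Igf2r by 0.72 ± 0.17 and Osbpl5 by 0.61 ± 0.13. In S-G2-M against G0, Peg13 and Snrpn had log2 changes of -2.60 and -1.83 and Peg12 of 1.77.

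The neighbours of Kcnq1ot1 and Rian are given beside them. Cdkn1c was higher at E13.5 in unsorted cells by 2.23 ± 0.12 and in all 4 gates, by 0.91 to 2.74 on the log2 scale. The ratio of Kcnq1ot1 to Cdkn1c ranged over 37.8-fold in the 25 libraries, 21.5-fold within the WT-titled preparations and 8.16-fold within preparations 5 and 8. Kcnq1, within which Kcnq1ot1 starts, had 0.532 to 4.31 CPM over the 4 gates, with a lower level in S-G2-M than in G1-S (-1.84 ± 0.42, adjusted p = 0.00384, edgeR). Mirg was lower in S-G2-M than in G0, as Rian was (-0.52 ± 0.14, adjusted p = 0.00265, edgeR).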

How the data were processed

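The deposited table held raw read counts per gene and sequencing lane. Per the submitters' processing notes, reads were handled with STAR 2.5.3, HTSeq 0.8.0 and mm10. Which annotation and strand setting were used for counting is not given in the sources used here. Lanes of a library were summed, which gave 25 libraries, after a check that lanes differed by little more than counting error (dispersion 1.09 to 1.23). Genes with enough counts by filterByExpr (minimum count 10, total 15) were tested with edgeR 4.0.16 (quasi-likelihood, TMM, robust) in R 4.3.3, with Benjamini-Hochberg adjustment over all genes tested. Gate comparisons used all 25 libraries with day as a term, unsorted cells were fitted alone by day, and days within gates and their differences used a mean for each day and gate. Each SE was taken from the log2 change and its F statistic. CPM are counts scaled by the TMM-adjusted library total, and correlations used log2 CPM with a prior count of 0.5. DESeq2 1.42.0 was an alternative. Other settings and fits without each preparation are given in the closing section. Libraries of a preparation share its name in the column headers and deviated together: over 14896 genes, the difference between WT1 and WT2 correlated between fractions with r of 0.168 to 0.682, and that between preparations 5 and 8 with r of 0.167 to 0.449. Named genes beyond the members were the 2 most alike by day-centred correlation (mean log2 CPM of at least 3, leaving out predicted, small RNA and overlapping genes) and, per gate comparison, the 3 other imprinted genes with the largest called change among those of mean log2 CPM of at least 3 (which leaves out Nap1l5 and Dio3), besides Igf2, H19, Cdkn1c, Kcnq1 and Mirg. The members and lists were chosen with earlier results of these data known. Models were tested on simulated counts.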

Additional observations from a re-analysis of the deposited data

Results flagged for a closer look

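Grb10 stood apart in a single preparation in 2 fractions, by the gap to the nearest other library as a share of the whole range. Gap and range were taken on log2 CPM, while the levels below are CPM. In S-G2-M cells WT2 had 1713.3 CPM, while the other 4 preparations had 1434 to 1486 CPM, a gap of 0.801 of the range. In unsorted cells WT1 had 1177.3 CPM, while the others had 1575 to 1628 CPM, a gap of 0.898. The critical value for 5 libraries is 0.71, and among 45 groups examined chance flags about 1 in 20. The change of Dlk1 in S-G2-M against G1-S differed between E13.5 and E10.5 by -1.11 on the log2 scale, and that of Rian in G1 against G0 by 0.738, both by a test of the difference itself. Day and type of preparation cannot be told apart for either.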

How the results depend on the processing

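Values that kept their direction and side of the threshold numbered 749 for single genes and 185 for counts. Single-gene values here are those of all members between gates. By day, and for the day differences, they are those called in the main fit or under an alternative, so values never called are left out. Of the other single-gene values 21 turned in direction, 54 gained and 32 lost a call, and 63 counts moved by over 1.5 times. With 2 preparations at E13.5 and at E10.5, leaving out a preparation leaves 1 sample in an arm, which is then assumed to vary like the other groups. Where a value below moved, the cause was not tested unless fewer samples or genes were fitted.

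Without the filter on low counts, 2 members were called in G1-S against G1 and 1 in S-G2-M against G1-S, 12939 genes in unsorted cells by day, and for the day differences 1563 genes with 3 members (G1 against G0), 1988 with 2 (G1-S against G1) and 778 genes (S-G2-M against G1-S). DESeq2 called 1 member in each of G1-S against G1 and S-G2-M against G1-S, 2 in the day difference of G1 against G0, and 467 genes in that of S-G2-M against G1-S. Without Gm26917 and Gm42418, Peg3 in S-G2-M against G1-S was 0.004 and 3 members were called by day in G1-S.

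The preparation as a replicate block could not be fitted for E13.5 against E10.5, since day is nested in preparation. It changed no member's call between gates. For the day differences the block gave 1818, 2688 and 784 genes, and 2 members (G1 against G0) and 1 (G1-S against G1).

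Within the WT-titled preparations 2233 genes were called in G1-S against G1 and 2708 in S-G2-M against G1-S, where Dlk1 was 0.340, Meg3 0.012 and Peg3 0.084. Within preparations 5 and 8, 8476 of 20886 genes were called in G1-S against G1, and 3 members in each of these steps. There Mest was -0.191 in S-G2-M against G1-S and Dlk1 -0.403 in S-G2-M against G0. Sums of the sorted gates in place of unsorted cells gave -0.063 for Grb10, 0.290 for Kcnq1ot1 and 1.469 for Meg3 (adjusted p = 0.0005).

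Leaving out each preparation in turn gave 2529 to 5187 genes in G1-S against G1 and 2430 to 3278 in S-G2-M against G1-S. By day it gave 3948 to 12442 genes and 4 to 7 members in unsorted cells, 5600 to 11752 and 3 to 6 in G0, 5296 to 13495 genes in G1, 4361 to 12260 and 3 to 7 in G1-S, and 4637 to 12013 genes in S-G2-M. The day differences gave 8 to 3753 genes and 0 to 4 members (G1 against G0), 32 to 5371 and 0 to 2 (G1-S against G1), and 1 to 2512 and 0 to 3 (S-G2-M against G1-S). Directions turned for Grb10 (-0.069 to 0.322) and Meg3 (-0.028 to 0.817) in unsorted cells, Ndn by day in G1 (-0.163 to 0.367), Peg3 by day in G1-S (-0.067 to 0.285), Mest by day in S-G2-M (-0.146 to 0.386), Plagl1 (-0.781 to 0.098, G1 against G0) and Ndn (-0.100 to 0.724, G1-S against G1) in the day differences, Plagl1 in G1-S against G1 (-0.223 to 0.003), and Mest (-0.046 to 0.166), Kcnq1ot1 (-0.021 to 0.201), Dlk1 (-0.211 to 0.145) and Peg3 (-0.069 to 0.049) in S-G2-M against G1-S.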
